A study of Mus musculus with 6 samples.

Results

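A set of 9 mouse genes tied to tissue residency of CD8+ T cells (Cd69, Zfp683, Ahr, Cdh1, Inpp4b, Litaf, Qpct, Chn2 and P2rx7) were chosen by name, and every array probe that carried 1 of these names and was not a control spot was read. Of the 9 genes, 8 were found under these names, with 13 probes among the 41174 distinct probes of the array. No probe was named Zfp683 (Hobit, a transcription factor of resident lymphocytes), and this gene was not analysed here. All 13 probes passed the filter on dim probes, so the 8 genes were among the 16389 genes tested.

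RNA came from sorted CD8+ T cells of the liver, taken from C57BL/6 females at 13 to 14 weeks of age. Both groups bore the dnTGFβRII transgene, whose product is a form of the TGF-beta receptor II that blocks the normal receptor. The TG group had this transgene alone, and the TGC3 group had it together with loss of the chemokine receptor CXCR3 (dnTGFβRII CXCR3-/-). Each group had 3 samples, each labelled with 1 dye (Cy3) and read on an array of its own, and the comparison asks what loss of CXCR3 does to these cells on the transgenic background. The promoter that drives the transgene is not given in the sources used here, and there were no samples without the transgene. The labels do not say whether samples of a group came from separate mice, so the spread behind the p-values may be technical.

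Resident memory CD8+ T cells stay in a tissue and do not return to the blood. They are known for surface CD69, for low levels of the receptors and transcription factors of tissue egress, and for adhesion molecules such as CD103 that hold them beside epithelium. TGF-beta is a known inducer of this programme, and the transgene carried by both groups blunts the response to it. CXCR3 guides activated T cells into inflamed tissue, the liver included.

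The probes are DNA strands of 60 bases, each read from a single place in the transcript, so where a gene has 2 or more probes they report on different stretches of its RNA. The first 30 bases of the probes on which the results turn are given here to show which stretches were read, in the orientation of the array design and with no part marked. Positions are those of the files, on build mm9, and exon or UTR placement is not given in the sources used here.
P2rx7 probe 1 (NM_011027, chr5:123134194-123134253, plus strand): ttcacttctctctttaaagggaaccatctt
P2rx7 probe 2 (NM_001038845, chr5:123120528-123123413, plus strand): tttcggcactggaggaaaatttgacatcat
Inpp4b probe 1 (AK053554, chr8:84648684-84648743, plus strand): gcaaccaagccatgacacatcattaccaag
Inpp4b probe 2 (NM_001024617, chr8:84565823-84565882, plus strand): cggcatttcagatttgaggaaagttgcatt
Cd69 (NM_001033122, chr6:129217697-129217756, minus strand): ttttgtcaattgttctccaccaaagaataa
Cdh1 (NM_009864, chr8:109193812-109193871, plus strand): acattctaacgggaaaaaggagacaagacc
P2rx7 probe 2 was placed over an interval longer than the probe, as happens where a probe crosses a splice junction. The P2rx7 probes lie in different parts of the gene and carry different transcript records, as do those of Inpp4b.

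The arrays were alike in depth: 58.9% to 63.8% of probes lay well above background, and the signal's 75th percentile ran from 561 to 623 intensity units. Values are given as scaled log2 signal, on which 0 is the array's 75th percentile and a step of 1 is a doubling. Cxcr3 matched the labels: it was -4.64, -4.21 and -4.53 on the TGC3 arrays, against 6.94, 6.85 and 6.89 on those of TG. The CD8+ T cell markers Cd8a, Cd8b1 and Cd3e were bright on all arrays, with changes of -0.20, -0.08 and -0.22 that did not pass the test. Of the 9 CD8+ T cell markers tested all had a change below 0, and Cd3d (-0.25), Cd3g (-0.29) and Cd5 (-0.41) passed as lower. All TGC3 arrays shared slide 1 and all TG arrays slide 2, and an effect of slide and one of genotype cannot be told apart. TGC3 was higher for 2720 genes (16.6% of those tested) and lower for 1548 (9.45%) at a limma adjusted p under 0.05. Scaling by the median in place of the 75th percentile moved the median change of all genes from -0.01 to -0.18 and turned this split to 1801 higher and 4766 lower.

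In TGC3 cells 2 of the 8 residency genes fell, Inpp4b and P2rx7, by 1.43-fold and 1.56-fold, and 0 rose, with 0 higher also at an unadjusted p under 0.05. The other 6 did not pass the test: Cd69, Cdh1, Chn2, Ahr and Qpct had lower TGC3 means, and Litaf had nearly equal means. The median change of the 8 was -0.50 on the log2 scale, with a range of -1.34 to 0.07, while the median of all genes was -0.01. Of the 8, 7 had a change below 0, against 51.4% of all genes. The members were chosen with earlier results of these data known, so these contrasts with all genes are a description and not a test. At an unadjusted p under 0.05 there were 4 members, Inpp4b, P2rx7, Cdh1 and Cd69, all with the lower mean in TGC3, while 6560 of the 16389 genes tested were under this threshold. The share of members that passed as lower, 2 of 8, stands beside 9.45% of all genes, and a count of 2 does not set the members apart from other genes.

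**Figure D1:**
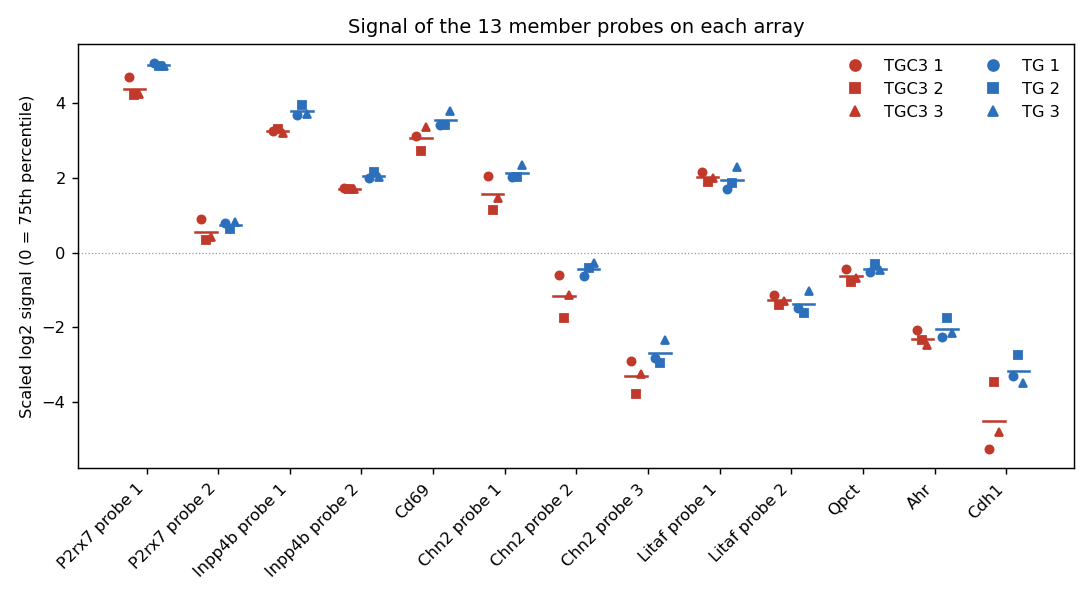
Scaled log2 signal (vertical axis, 0 is the array's 75th percentile) of the 13 member probes on each of the 6 arrays, with group means as bars. The groups stand apart for both Inpp4b probes, P2rx7 probe 1 and Cd69, and overlap for the other 9 probes.

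Among the surface proteins, P2rx7 encodes P2X7, an ion channel opened by extracellular ATP that resident T cells of the liver are known to carry. Its brighter probe read 4.67, 4.21 and 4.22 on TGC3 1 to TGC3 3, against 5.05, 4.98 and 4.99 on TG 1 to TG 3. Every TGC3 value lay below every TG value, with TGC3 1 nearest to the TG arrays, which were within 0.04 (SD, n = 3) of each other. The fall was 0.64 ± 0.14 (SE) on the log2 scale, or 1.56-fold, with a limma adjusted p of 0.0204 over all genes. The second probe read 0.88, 0.32 and 0.42 in TGC3, against 0.80, 0.62 and 0.82 in TG. These values overlapped, since TGC3 1 was the highest of the 6, and the change of -0.20 (95% interval -0.58 to 0.18) had an adjusted p of 0.390 over all probes.

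The P2rx7 call held in 2 of the 6 fits that left out 1 array, with changes from -0.79 to -0.56. It held without TGC3 1 (adjusted p 0.00742) or TGC3 2 (0.0496) and was lost without TGC3 3 (-0.56, 0.0619), TG 1 (-0.62, 0.0653), TG 2 (-0.65, 0.0598) or TG 3 (-0.65, 0.0578), each of which leaves fewer samples. Averaging the probes of each gene gave a change of -0.42 and an adjusted p of 0.0835. Over 19 alternatives the adjusted p ran from 0.00742 to 0.787. The highest came from normexp, a background correction, on raw backgrounds, where 1 of 16389 genes passed as lower and 0 as higher. The next highest was the 0.0835 of averaged probes.

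Cd69 encodes the early activation antigen that binds the egress receptor S1PR1 and takes it off the cell surface. It read 3.10, 2.70 and 3.35 in TGC3, and the TG arrays gave 3.41, 3.40 and 3.77. The groups did not overlap, but TGC3 3 lay only just under the lowest TG array. The change was -0.48 ± 0.19 (SE; 95% interval -0.94 to -0.02) and the adjusted p 0.112, so Cd69 did not pass. With arrays centred on the median it did (-0.65, adjusted p 0.0439), although the median of all genes was then -0.18. That p ran from 0.0439 to 0.862 over 19 alternatives, the highest with normexp on raw backgrounds and the next highest 0.257 without TG 3.

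In all, 3 members had groups that did not overlap, with each TGC3 value lower: Inpp4b, P2rx7 and Cd69. Among all genes 22.4% were separated in this direction and 24.3% in the other, in which 0 members were.

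Cdh1 encodes E-cadherin, the epithelial adhesion molecule that is also the ligand of CD103 and of the inhibitory receptor KLRG1. It read -5.25, -3.45 and -4.80 in TGC3, and the TG values were -3.28, -2.73 and -3.48 in TG. TGC3 1 and TGC3 3 lay well below the TG arrays, while TGC3 2 lay among them. The change of -1.34 ± 0.48 (SE; 95% interval -2.49 to -0.18) had an adjusted p of 0.0885. Without TGC3 2 it was -1.86 and passed (adjusted p 0.0131). It was -0.96 and did not pass (0.195) without TGC3 1, where the probe was not above background. The p ran from 0.0131 to 0.722 over the 18 alternatives that kept the probe. The highest came with normexp on raw backgrounds, and the next highest was 0.217 without TG 2.

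The Cdh1 signal was dim. Its mean over spots, in intensity units, was 15.7 on TGC3 1, 56.0 on TGC3 2 and 22.5 on TGC3 3, against 57.8, 86.3 and 55.8 for TG 1 to TG 3. On TGC3 1 none of its used spots was well above background (0 of 7), so the level there is a bound. With background correction of the raw signals by normexp and aberrant spot backgrounds replaced, the change was -0.54 (limma adjusted p 0.0634) in place of -1.34. That setting adds an offset of 50 intensity units to each corrected signal, which shrinks the log2 change of a dim probe. It therefore cannot show how much of the change was background.

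The array held 10 spots each of the Cdh1 and the Ahr probe, which gives the spread between spots of 1 array once outlier spots are dropped. Spots of an array share its labelling and hybridization, so the spread between arrays may hold technical error as well. Within an array the used Cdh1 spots had an SD of 0.06 to 0.17 on the log2 scale, while the SD between arrays was 0.94 in TGC3 and 0.39 in TG. For Ahr the SD between spots was 0.04 to 0.18, and between arrays 0.21 in TGC3 and 0.26 in TG. The Cdh1 spread in TGC3 includes TGC3 1, where the probe was not above background.

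**Figure D2:**
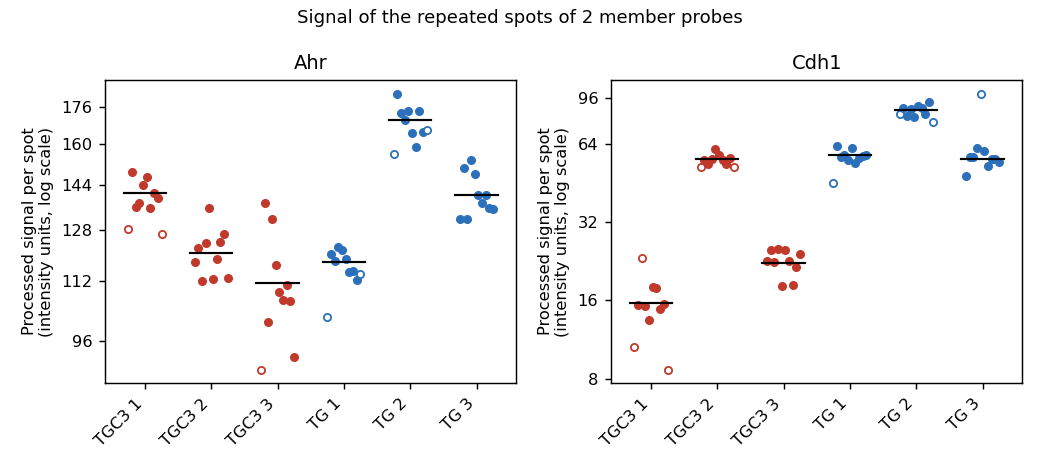
Processed signal of each of the 10 spots of the Ahr and Cdh1 probes (vertical axes, intensity units on log scales) by array, with filled points used, open points set aside as outliers and bars at the geometric mean of used spots. The TGC3 2 spots of Cdh1, with a mean of 56.0, lie beside those of TG 1 and TG 3 and apart from those of TGC3 1 and TGC3 3.

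Markers of bile duct and other epithelial cells, which carry E-cadherin, were low. Of 8 such genes 3 were tested, and Krt7, Krt8, Krt19, Sox9 and Cldn4 were above background on 0 arrays. The changes of the tested 3 were 0.46 for Krt18 (adjusted p 0.0817), 0.71 for Cldn7 (0.221) and -0.23 for Epcam (0.281). Their summed level, in multiples of the 75th percentile, was 0.207 to 0.246 in TGC3 and 0.164 to 0.233 in TG. The part of such cells in the Cdh1 values was not tested.

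Ahr, the aryl hydrocarbon receptor, is a transcription factor switched on by dietary and microbial ligands and is known to help resident T cells persist in barrier tissue. It read -2.08, -2.34 and -2.48 in TGC3, against -2.25, -1.75 and -2.15 in TG. The groups overlapped, with TGC3 1 above TG 1 and TG 3. The change was -0.25 ± 0.16 (SE; 95% interval -0.65 to 0.15) with an adjusted p of 0.305, and it was -0.10 without TG 2. Of 10 partners and targets of the receptor, 5 were tested and 0 passed in either direction, with 1 higher at an unadjusted p under 0.05. Among all genes 16.6% passed as higher and 9.45% as lower. Arnt, its DNA-binding partner, had a change of 0.27 (adjusted p 0.0848), which passed without TGC3 2 (0.35, 0.0354), and the target Tiparp a change of 0.10 (0.404) that turned to -0.08 when arrays were centred on the median. The targets Ahrr, Cyp1a1, Cyp1b1 and Nqo1 were well above background on 0 arrays.

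Inpp4b fell in TGC3 by both of its probes, and it passed in more alternatives than any other member. It encodes a phosphatase that removes the 4-phosphate of a membrane lipid made downstream of PI3-kinase. Probe 1 read 3.25, 3.30 and 3.18 in TGC3, against 3.66, 3.94 and 3.68 in TG. The TGC3 arrays were within 0.06 (SD, n = 3) of one another and all below the TG arrays, of which TG 2 was the highest. The fall was 0.52 ± 0.09 (SE), or 1.43-fold, with a limma adjusted p of 0.0131. Probe 2 read 1.71, 1.70 and 1.69 in TGC3, against 1.99, 2.15 and 2.02 in TG, a fall of 0.35 ± 0.07 (SE) with an adjusted p of 0.0167 over all probes. Both probes therefore gave groups that did not overlap. The gene passed without any 1 array, with adjusted p from 0.0269 to 0.0441, and in 18 of 19 alternatives, the exception being normexp with raw backgrounds.

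Chn2 encodes beta-chimaerin, which switches off the GTPase Rac and so acts on cell shape and movement. Probe 1 (NM_023543) read 2.05, 1.13 and 1.47 in TGC3, against 2.01, 2.02 and 2.34 in TG. TGC3 1 lay among the TG arrays and TGC3 2 was the lowest. The change was -0.58 ± 0.24 (SE; 95% interval -1.16 to 0.01) with an adjusted p of 0.128. Probes 2 and 3 had changes of -0.72 and -0.61 and the same placing of TGC3 2 as the lowest array. Without TGC3 1 the gene passed (-0.83, adjusted p 0.0292) and without TGC3 2 its change was -0.37. Over 19 alternatives the p ran from 0.0292 to 0.763, the highest with normexp on raw backgrounds and the next highest 0.343 with array weights.

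Qpct encodes glutaminyl cyclase, which modifies the amino end of peptides, chemokines among them. It read -0.43, -0.79 and -0.68 in TGC3, against -0.52, -0.31 and -0.47 in TG. TGC3 1 lay among the TG arrays. The change was -0.20 ± 0.11 (SE; 95% interval -0.47 to 0.07) with an adjusted p of 0.236, and it was -0.12 without TGC3 2.

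Litaf encodes a protein of late endosomes and lysosomes that was named for its link to TNF. Probe 1 read 2.14, 1.88 and 2.00 in TGC3, against 1.70, 1.85 and 2.28 in TG. The TGC3 values all fell within the TG range. The change of 0.07 ± 0.16 (SE; 95% interval -0.33 to 0.46) had an adjusted p of 0.792 and turned to -0.06 without TG 1 and to -0.11 with arrays centred on the median. Probe 2 gave 0.09 (95% interval -0.30 to 0.49).

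**Figure D3:**
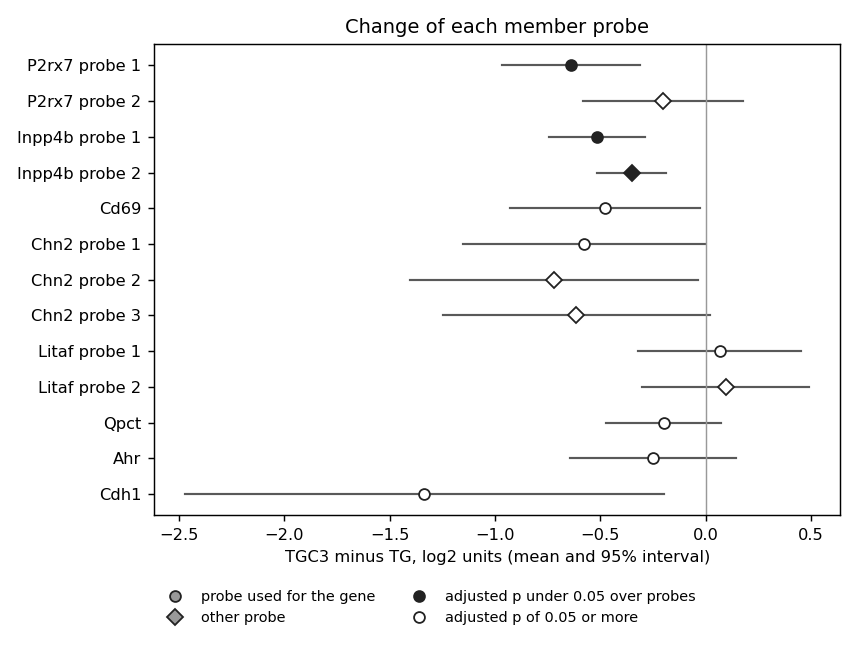
Change from TG to TGC3 (horizontal axis, log2 units) of each member probe with its 95% interval, filled where the adjusted p over all probes was under 0.05. Both Inpp4b probes and P2rx7 probe 1 are filled, and the intervals of Ahr, Qpct, both Litaf probes, Chn2 probe 3 and P2rx7 probe 2 include 0.

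Counted by probe, 3 of 13 were lower in TGC3 and 0 higher, beside 8.37% lower and 13.7% higher of all probes, and 11 of 13 had a change below 0. The low values did not fall on the same array for each gene. TGC3 2 was the lowest array for 4 members, TGC3 3 for 2 and TGC3 1 and TG 1 for 1 each. A TG array was the highest for all 8, TG 2 for 4, TG 3 for 3 and TG 1 for 1.

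The P2rx7 probes disagreed, which led to a comparison chosen after the values were seen: for each gene with 2 or more kept probes, the signal of the second-brightest was subtracted from that of the brightest on the same array, which removes any scaling of the array. For P2rx7 this distance was 3.79, 3.89 and 3.79 in TGC3, against 4.25, 4.36 and 4.17 in TG. The groups did not overlap. The distance was 0.44 ± 0.07 (SE) smaller in TGC3 on the log2 scale, with a limma adjusted p of 0.0178 over 5824 genes, of which 11.6% passed in either direction and 7.3% as lower. An exact two-sided permutation test on the 6 distances alone gave p = 0.1, the smallest that 3 against 3 samples allow. The call was lost without TGC3 1 (-0.42, adjusted p 0.0600), TGC3 3 (-0.42, 0.0617), TG 1 (-0.44, 0.0641) or TG 2 (-0.39, 0.0608), while it held without TGC3 2 (-0.47, 0.0378) or TG 3 (-0.48, 0.0299). Since the disagreement of the probes prompted this comparison, it is no independent evidence of it. Which transcripts or other targets each probe reads was not tested.

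For the other 3 genes with several probes the distances did not pass. That of Inpp4b was 1.54, 1.60 and 1.49 in TGC3, against 1.67, 1.79 and 1.66 in TG, groups that did not overlap, with a difference of -0.17 ± 0.06 (SE) and an adjusted p of 0.140. Chn2 had a difference of 0.14 ± 0.10 (SE) with an adjusted p of 0.381. Litaf had one of -0.03 ± 0.08 (SE) with an adjusted p of 0.854, which turned positive under 6 alternatives.

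**Figure D4:**
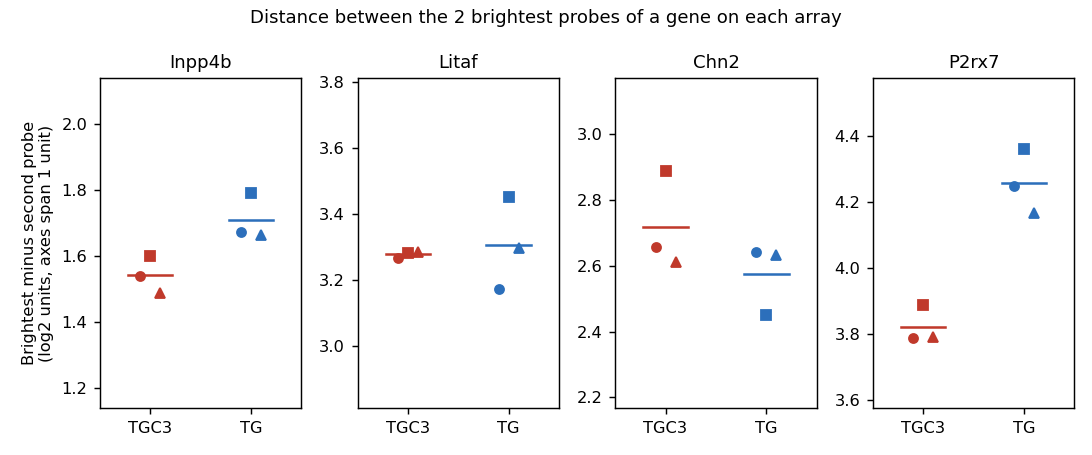
Distance in log2 units between the brightest and second-brightest probe (vertical axes, each spanning 1 unit) of the 4 members with several probes on each array (circle, square and triangle for replicates 1 to 3), with group means as bars. P2rx7 has TGC3 values of 3.79 to 3.89 and TG values of 4.17 to 4.36, while the groups overlap for Chn2 and Litaf.

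Of 19 other genes of residency, 18 were tested, and 5 were lower and 3 higher in TGC3, beside 9.45% lower and 16.6% higher of all genes. Their median change was -0.18. Rgs1, a brake on chemokine receptor signalling, fell by 0.85 (adjusted p 0.00884), and Hpgds, a prostaglandin D synthase, fell by 0.89 (0.0308). The Hpgds change was -0.30 by normexp with aberrant backgrounds replaced, where the offset of 50 units shrinks changes of dim probes. Itga1, the CD49a subunit that binds collagen, fell by 0.75 (0.0341), and Skil (-0.45) and Isg20 (-0.71), named after their values were seen, were the other genes called lower. Nr4a1, a nuclear receptor induced by T cell receptor signals, rose by 0.83 (0.0129), as did its relative Nr4a2 (0.74) and the repressor Bhlhe40 (0.63), both also named after their values were seen.

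Itgae, the CD103 subunit that binds E-cadherin, had a change of -0.54 (adjusted p 0.194), which was -0.23 without TG 3. Cxcr6, the receptor for CXCL16 on liver vessels, had one of -0.18 (0.406), or -0.04 without TGC3 2, and the transcription factor Prdm1 one of 0.11 (0.499), which turned to -0.07 when arrays were centred on the median. Rgs1 and Nr4a1 passed without any 1 array. Itga1 was lost without TGC3 3, TG 1, TG 2 or TG 3 (adjusted p up to 0.0992) and Hpgds without any array but TGC3 1 (up to 0.0909). With all arrays Itga1 was lost by quantile normalization (0.0514) and by averaging its probes (0.0940), and it passed in 8 of 19 alternatives. The count of lower residency genes ran from 1 to 6 when arrays were left out in turn, with 1 each without TGC3 3, TG 1, TG 2 or TG 3.

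Genes of recirculation and egress gave 1 higher and 2 lower of 19 tested, beside 16.6% higher and 9.45% lower of all genes, with a median of 0.07. S1pr1, the egress receptor that CD69 binds, had a change of 0.28 (adjusted p 0.0613), which passed in 4 of 19 alternatives. Its adjusted p ran from 0.0303 to 0.722, the highest with normexp on raw backgrounds. The next highest was 0.325 with arrays centred on the median, where the change was 0.11. Klf2, the transcription factor that drives S1pr1, rose by 0.31 (0.0287), but kept its call only without TGC3 1 among arrays left out in turn (up to 0.0925) and not with arrays centred on the median (0.13, 0.236). Ccr7, a chemokine receptor for entry into lymph nodes, fell by 0.91 (0.00787) and passed without any 1 array. Klrg1, a receptor for E-cadherin found on effector cells, had a change of 0.50 (0.133), or 0.29 without TGC3 2.

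Around P2rx7, genes that sense, make or remove extracellular ATP, adenosine and NAD gave 1 higher and 2 lower of 11 tested of 13, with a median of -0.28. Of all genes 16.6% were higher and 9.45% lower. Nlrp3, the inflammasome sensor, rose by 0.75 (adjusted p 0.00305), or 0.23 by normexp with aberrant backgrounds replaced, where the offset shrinks changes of dim probes. Adora2a, a receptor for adenosine, fell by 0.49 (0.0046), a call that averaging its probes ended (-0.16, 0.0773). Panx1, a channel that releases ATP, had a change of -0.27 (0.0242) by its brightest probe but of 0.43 (0.0108) by its most variable probe, so it has no settled direction. Art2b, whose enzyme opens P2X7 through NAD, had a change of -0.35 (0.162), and Cd38, which breaks down NAD, one of -0.37 (0.179) that passed without TGC3 1 (-0.57, 0.0260).

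Around Inpp4b, phosphoinositide phosphatases and PI3-kinase subunits gave 0 higher and 3 lower of 13, with a median of -0.23 and 12 changes below 0. Among all genes 16.6% were higher, 9.45% lower and 51.4% below 0. The list was chosen with earlier results known, and no test of it as a set was run. Inpp5b, a 5-phosphatase, fell by 0.50 (adjusted p 0.00715) and passed without any 1 array. Pik3r1, a regulatory subunit of PI3-kinase, fell by 0.36 (0.0335) and was lost without TGC3 1, TGC3 3, TG 1 or TG 2 (up to 0.102). With all arrays it was lost by quantile normalization (0.0773) and cyclic loess (0.0894), and it passed in 9 of 19 alternatives.

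Around Chn2, Rac GTPases and their regulators gave 0 higher and 1 lower of 9 tested of 10, beside 16.6% higher and 9.45% lower of all genes. The lower gene was Vav1, an activator of Rac, which fell by 0.25 (adjusted p 0.0358) and was lost without any array but TGC3 3 (up to 0.108). With all arrays it was lost by quantile normalization (0.0916) and cyclic loess (0.106), and it passed in 7 of 19 alternatives. Around Cdh1, cadherin partners and receptors gave 0 of 6 tested in either direction, beside the same shares of all genes, and 0 also at an unadjusted p under 0.05. Ctnnb1, beta-catenin, had a change of -0.13 (0.260) by its brightest probe and of -0.51 (0.00835) by its most variable probe.

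**Figure D5:**
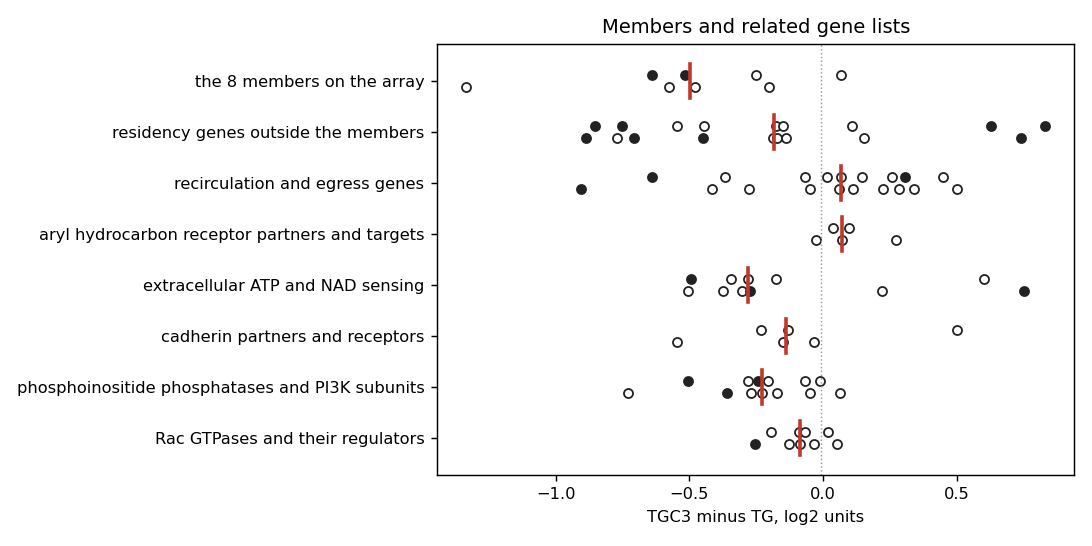
Change from TG to TGC3 (horizontal axis, log2 units) of the 8 members and of the tested genes of 7 related lists, filled where the adjusted p over all genes was under 0.05, with the list's median as a red bar and the median of all genes as a dotted line. The members have a median of -0.50, the other residency genes one of -0.18 and the egress genes one of 0.07.

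For each member, genes with the most similar profiles over the 6 arrays were found by the root mean square difference of profiles centred on their mean. For Inpp4b these were Rasgrf2 (0.04 log2 units) and Haus2 (0.05), and for P2rx7 B3galt5 (0.07) and Cldn10 (0.10). For Cd69 they were Ubfd1 (0.04) and Ahsa2 (0.06), and for Chn2 Xcl1 (0.11), a chemokine gene on the residency list, and Ckb (0.12). For Cdh1 the gene given, Gzmm, was less near (0.24). The nearest genes were Mfsd10 and Naip5 for Ahr, Ube2d1 and Fhdc1 for Litaf, and Myd88 and Naa16 for Qpct. These profiles share their arrays and slides and are given as a description.

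Markers of other cells also differed between the groups, and fewer cells of a type and less RNA per cell cannot be told apart in such samples. The counts below stand beside 16.6% higher and 9.45% lower of all genes. Summed in multiples of the 75th percentile, the 2 tested of 5 gamma-delta T cell markers gave 2.40 to 4.03 in TGC3 and 7.13 to 8.08 in TG, and both, Cd163l1 and 5830411N06Rik, passed as lower. The 8 tested of 9 NK and innate lymphoid markers gave 12.9 to 16.5 and 20.2 to 23.1, with 1 higher and 3 lower, and the 5 tested of 8 B cell markers 19.1 to 25.5 and 31.5 to 36.5, with 3 higher and 1 lower. Neutrophil markers, with 4 of 10 tested and 2 higher (S100a8 and S100a9), gave 1.63, 8.03 and 3.04 on TGC3 1 to TGC3 3 and 0.110 to 0.173 in TG, while Elane, Csf3r and Cxcr2 were above background on 0 arrays. Dendritic cell markers, with 7 of 10 tested and 4 higher, gave 17.4 to 27.6 and 20.1 to 23.2. Macrophage and Kupffer cell markers, with 6 of 12 tested and 3 higher, gave 1.18, 3.29 and 1.38 in TGC3 and 0.784 to 0.917 in TG, with Timd4, C1qa and C1qc on 0 arrays. CD4 and regulatory T cell markers, with 4 of 5 tested and 1 higher, gave 1.22 to 1.59 and 1.14 to 1.23, with Foxp3 on 0 arrays. Endothelial and stellate cell markers, with 5 of 10 tested and 2 higher, gave 0.792 to 0.870 and 0.677 to 0.771, and the 1 tested of 10 hepatocyte markers, which was higher, gave 0.107 to 0.118 and 0.0609 to 0.0658. CD8+ T cell markers gave 941 to 1033 in TGC3 and 1030 to 1145 in TG.

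The part of these cells in the members' changes was not tested. Without TGC3 2, the array with the most neutrophil and macrophage signal, Inpp4b fell by 0.55 (adjusted p 0.0269) and P2rx7 by 0.56 (0.0496). Cd69 then had a change of -0.30 (0.198). TGC3 1 and TGC3 3 still had neutrophil marker sums of 1.63 and 3.04, against 0.110 to 0.173 in TG. Leaving out TGC3 2 is therefore no test of the part of these cells.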

How the data were processed

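Each of 6 arrays of 45018 spots held 1 sample. Feature Extraction, in version 10.7.3.1 per the file headers and 10.7.1.1 per the submitters' processing notes, gave an intensity for each spot. Per the file headers, the authors' processed signal has the background of the array taken off and is not scaled between arrays. The deposited normalized values are on a log2 scale with the same median (5.57) in every column, and served as an alternative. How they were made beyond this is not given in the sources used here.

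Spots the software marked as outliers were dropped and the spots of a probe averaged as log2 signal minus the array's 75th percentile. A probe was kept if at least 3 of 6 arrays had it well above background (25103 probes), and each of 16389 genes was read by its brightest kept probe. Gene names came from RefSeq through the accession (27660 probes), symbol (5595) or synonym (470), while 7449 kept the name in the files. TGC3 and TG were compared with limma 3.58.1 in R 4.3.3 (lmFit and eBayes, two-sided), with Benjamini-Hochberg adjustment over all genes or probes. On simulated data with 16189 of the 16389 genes left unchanged, a 1.5-fold change was found for 36 of 67 genes. A 2-fold change was found for 51 of 67 and a 4-fold change for 64 of 66, with 8 unchanged genes called. In the data 2720 genes passed as higher and 1548 as lower, so these shares are not detection rates of the real comparison. The test of probe distances found 173 of 200 simulated 2-fold changes among 5824 genes, with 11 false calls.

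The members and lists were chosen with earlier results of these data known. Genes named in the text are the members, Cxcr3, Cd8a, Cd8b1 and Cd3e, from each related list up to 3 genes that passed the threshold with the largest changes, 13 genes of known function whatever their values, and the 2 nearest profiles of each member, with exceptions stated. The results of some of the genes this rule takes are left out here. Of the marker lists, summed levels and a few genes are given to keep the text short, and these genes were chosen with their values known. Alternatives were other normalizations, background corrections, filters, probe choices, limma settings, a replicate block and leaving out each array.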

Additional observations from a re-analysis of the deposited data

How the results depend on the processing

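The count of members lower in TGC3 was 2. It was 4 with arrays centred on the median, 1 with no filter, 1 with the mean of a gene's probes and 0 with normexp on raw backgrounds, and it ranged from 1 to 3 when each array was left out. The count of members higher was 0 throughout. Normexp on raw backgrounds left 0 higher and 1 lower of all genes (505 at an unadjusted p under 0.05) and a member median of -0.22, and with 7 aberrant spot backgrounds replaced 2037 and 1867. Of all genes 2092 were higher and 578 lower with no filter, and 1752 to 2356 higher and 573 to 1505 lower without 1 array. Direction turned with arrays centred on the median for Litaf (-0.11), Prdm1 (-0.068) and Tiparp (-0.079), and without TG 1 for Litaf (-0.057, with up to 0.23 without another array). With normexp on raw backgrounds it turned for Cxcr6 (0.26), Ctnnb1 (0.19), Nlrp3 (-0.55), Panx1 (0.16), Pik3r1 (0.0017) and Vav1 (0.090). For Panx1 it turned with the mean of a gene's probes (0.077) and with the most variable probe (0.43). The distance between the Litaf probes turned to 0.068 with quantile normalization, 0.057 with cyclic loess, 0.066 with the deposited values, 0.57 with normexp, 0.040 with aberrant backgrounds replaced and 0.043 without TG 2 (-0.097 without TG 1). The causes were not tested. The labels do not say whether the replicate numbers pair the samples. Correlations of same-numbered deviations were -0.0031, -0.077 and -0.099, which cannot settle this with 3 arrays per group. With the replicate block 3 members were lower, Cdh1 passed (-1.34, adjusted p 0.0447), the P2rx7 distance did not (0.0555), and 1795 genes were higher and 554 lower. Cdh1 was not kept by the filter on all 6 arrays. Depth is limited by signal over background, which Cdh1 lacked on TGC3 1.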
